A study of Solanum lycopersicum with 48 samples.

Results

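Leaves of 2 tomato cultivars, Guozhen No.1 and Guizhen No.1, were compared at day 1 under normal nitrogen supply. The comparison rests on 6 of the 48 libraries of the study, the 3 whose titles place them in Guozhen leaf at day 1 with 9 mM nitrogen and the 3 of Guizhen leaf with the same day and supply. All plants were grown in a chamber in hydroponic culture on full-strength Hoagland solution, and the other 42 libraries hold roots, day 7, or 1 mM nitrogen (called low nitrogen here). Left unsaid by the labels are the event that starts the count of days, the age of the plants, which cultivar copes better with low nitrogen, and whether the 3 replicates of a group were separate plants, so p-values measure only the spread between libraries, which may be technical. That spread was estimated from all 24 leaf libraries.

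Nitrogen is taken up by plants mainly as nitrate or ammonium and is built into amino acids by way of nitrate reduction and glutamine synthesis. In a leaf, much of that nitrogen is held in Rubisco, the enzyme that fixes carbon dioxide, and in the chlorophyll-binding proteins that gather light. Cultivars of a crop differ by many DNA variants, and neighbouring genes on a chromosome tend to be inherited together. Tomato locus numbers carry the position of a gene: the digits before the letter g give the chromosome, with 00 for sequence not placed on any, and the digits after it rise along the chromosome. Neither the deposited table nor the supplied gene table pairs these numbers with gene names, so that loci are given by number. Where a locus is said to stand on a list, such as that for Rubisco, the class was assigned to its number from general knowledge and is unverified.

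The authors deposited FPKM, a fragment count divided by gene length and by the size of the library. Summed FPKM lay between 595575 and 630431 in the 6 libraries. The number of genes with at least 1 FPKM was 17952 to 18039 in Guozhen and 17550 to 17711 in Guizhen, and the number listed at 0 was 5722 to 5734 and 5977 to 6328. A relative depth, estimated from the smallest values, ran from 0.798 in Guizhen replicate 1 to 1.13 in Guizhen replicate 3. Libraries correlated across genes at 0.973 to 0.976 within Guozhen, 0.959 to 0.966 within Guizhen and 0.943 to 0.964 between the cultivars. Guizhen replicate 3 stood nearest to the other cultivar: on the first principal component of the 6 libraries (41.0% of the variance) Guozhen lay at 26.7 to 34.7, Guizhen replicates 1 and 2 at -38.5 and -39.9, and Guizhen replicate 3 at -14.1. The 32 loci listed for Rubisco and chlorophyll-binding proteins summed to 15233 to 30685 FPKM in the 6 libraries and to 60.8 to 305 in the 24 root libraries, as leaf and root labels imply if the listed classes are right. A list of 3 loci for root uptake went against its name, with sums of 382 to 547 FPKM in the 6 leaf libraries and 75.9 to 370.0 in root. Within it, Solyc09g090070.1 made up most of the leaf sum, at 341 to 521 FPKM in these leaves and 67.6 to 370 in root. Solyc03g045070.1 stood at 25.9 to 54.3 FPKM in these leaves and at most at 0.444 in root. Solyc11g069750.1 went with the name, at 0 in the 6 leaf libraries and at 0 to 11.4 FPKM in root. As a sum, the list was no marker of root tissue here.

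A small share of genes passed the test between Guozhen and Guizhen leaves, in both directions. A gene that did not pass is not thereby shown to be equal in the 2 cultivars. Differences are those of mean log2(FPKM + 1), Guozhen minus Guizhen, a scale that shrinks the fold of genes at low level. Of 19815 genes tested with limma, 579 (2.92%) passed an adjusted p below 0.05 and are referred to as called. Of these, 379 (1.91% of the genes tested) were higher and 200 (1.01%) lower in Guozhen. A difference of at least 1 on the log2 scale was reached by 187 of the genes called higher (0.944% of those tested) and by 148 of those called lower (0.747%). The 3 libraries of one cultivar did not overlap with the 3 of the other for 576 of the 579 called genes, and for 5573 of all 19815 (28.1%).

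The split between directions depends on scaling. The median difference over all tested genes was 0.08, and after median-of-ratios scaling it was -0.01. With that scaling 556 genes were called, 263 higher and 293 lower, so that the share of calls higher in Guozhen went from 65.5% to 47.3%, and 462 genes were called both ways. Leaving out 1 library changed the number called to 378 without Guizhen replicate 1, 288 without Guizhen replicate 2, 777 without Guizhen replicate 3, and 307, 347 and 322 without Guozhen replicates 1, 2 and 3. Of the 579 genes, 204 (35.2%) were called whichever library was left out, 133 of them higher and 71 lower in Guozhen.

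**Figure D1:**
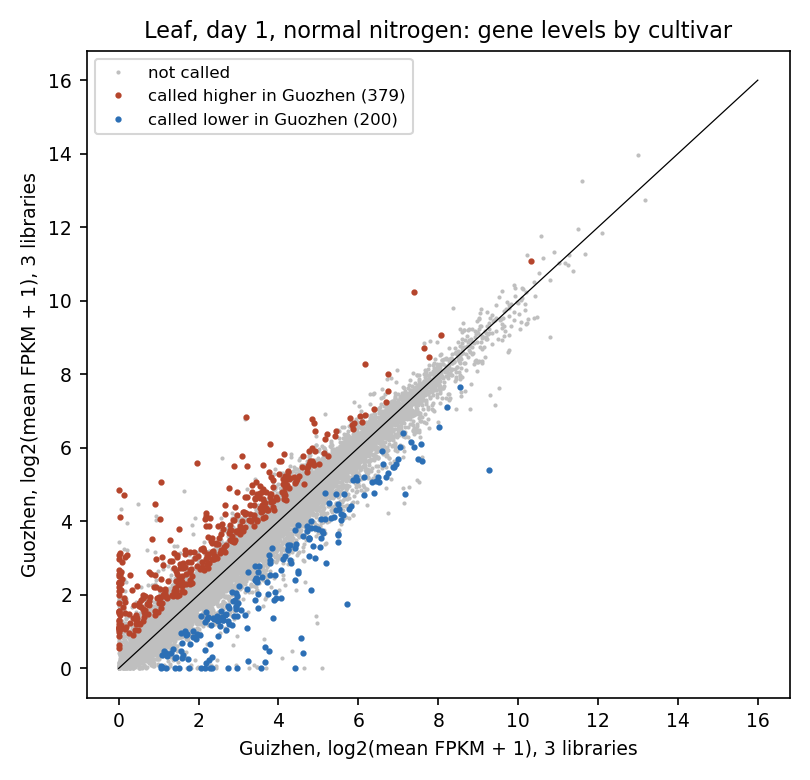
Mean level of each tested gene in Guizhen (horizontal) and Guozhen (vertical) leaf at day 1 and normal nitrogen, as log2(mean FPKM + 1) over 3 libraries each, with the line of equal level. Grey dots are genes not called, red dots the 379 called higher and blue dots the 200 called lower in Guozhen. Called genes lie on both sides of the line over the whole range of levels.

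The loci named first have the largest differences among numbered loci that reached a group mean of 5 FPKM, with groups that do not overlap, and their levels in the lower cultivar ran from 0 to 345 FPKM per library. Newly assembled genes were left out of this ranking. Solyc03g114860.2 stood at 48.2, 47.0 and 45.8 FPKM in the Guozhen libraries and at 2.24, 2.98 and 3.54 in the Guizhen libraries. The difference was 3.63 ± 0.28 (SE; limma adjusted p = 8.56e-08), and it was called whichever library was left out. All 3 Guozhen libraries lay more than an order of magnitude above all 3 of Guizhen.

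Less even differences were also among the largest of those higher in Guozhen. Solyc09g089520.2 stood at 10.4, 23.0 and 64.9 FPKM in Guozhen and at 3.08, 0.169 and 0 in Guizhen (difference 3.96 ± 0.64, limma adjusted p = 0.00104). The neighbouring loci Solyc03g098710.1 and Solyc03g098720.2 had the same order of libraries within each cultivar. The first stood at 5.22, 16.6 and 41.4 FPKM against 0.561, 2 and 0.105 (3.27 ± 0.55, limma adjusted p = 0.0017). The second stood at 28.9, 75.2 and 236 FPKM against 5.79, 15.6 and 3 (3.41 ± 0.62, limma adjusted p = 0.00364). Groups did not overlap at any of these 3 loci, and Guozhen replicate 3 was the highest library at each. With only the 6 libraries in the fit, none of the 3 passed (limma adjusted p = 0.0555, 0.073 and 0.0888).

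A pair of loci rested on Guizhen libraries that disagreed among themselves. Solyc09g020190.2 stood at 42.7, 48.9 and 41.5 FPKM in Guozhen, and in Guizhen at 24.8 in replicate 1 while replicates 2 and 3 were listed at 0 (difference 3.94 ± 0.73, limma adjusted p = 0.00438). Solyc04g009180.1 stood at 27.6, 26.8 and 32.9 FPKM in Guozhen and at 17.4, 0.0672 and 0.0659 in Guizhen (3.44 ± 0.65, limma adjusted p = 0.00479). The first locus was below 0.1 FPKM in 19 of the 48 libraries of the study, all of them Guizhen. Its difference was called in the same direction in 6 of the 7 other combinations of organ, day and nitrogen. The second locus was below 0.1 FPKM in 5 of the 48 libraries, 3 of Guizhen and 2 of Guozhen, and between 13.3 and 86.4 in the other 43. Libraries of both cultivars were thus found near 0 at this locus. Both loci kept their call whichever library was left out, and neither passed with only the 6 libraries in the fit (limma adjusted p = 0.141 for each).

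The remaining loci of this group were fragile or very abundant. Solyc09g007010.1 was the most abundant of the called genes with a difference above 1 and groups that did not overlap, at 1086, 1532 and 990.0 FPKM in Guozhen and 345, 100.3 and 54.3 in Guizhen. Its difference of 3.24 ± 0.68 (limma adjusted p = 0.00972) did not pass without Guizhen replicate 2 (adjusted p = 0.0533), with only the 6 libraries (0.0576) or with a pseudocount of 0.1 (0.0756). Solyc00g282510.1 stood at 26.7, 25.7 and 23.0 FPKM against 0.0281, 0.024 and 0.219 (4.59 ± 1.08, limma adjusted p = 0.0229). It passed without Guizhen replicate 3 and with none of the other 5 libraries left out, where the limma adjusted p was 0.0703 to 0.0868. Solyc10g011930.1 stood at 32.8, 33.9 and 17.0 FPKM in Guozhen and was listed at 0 in all 3 Guizhen libraries (limma adjusted p = 0.0284). Solyc05g013880.1 stood at 5.98, 8.73 and 8.49 FPKM against 0, 0 and 0.0504 (3.09 ± 0.80, limma adjusted p = 0.0408). These last 3 loci passed with only the 6 libraries in the fit. In leaves at day 1 under low nitrogen, Guizhen replicate 3 stood at 165.6 FPKM at Solyc10g011930.1 and 139.7 at Solyc00g282510.1, above every Guozhen library there, while Guizhen replicates 1 and 2 were at or below 0.244. Neither Solyc10g011930.1 nor Solyc05g013880.1 passed when any 1 of the 6 libraries was left out, with limma adjusted p of 0.0519 to 0.0987 and 0.0654 to 0.128, and the second also failed after scaling (0.0733) and without the filter on low values (0.0643).

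Among genes lower in Guozhen, several loci were near or below 1 FPKM in the 3 Guozhen libraries. Solyc10g085040.1 stood at 0.373, 0.0383 and 0.568 FPKM in Guozhen and at 22.2, 23.2 and 25.0 in Guizhen, a difference of -4.22 ± 0.32 (limma adjusted p = 8.56e-08). Solyc01g089890.2 stood at 1.15, 0.674 and 0.523 FPKM against 22.3, 28.9 and 17.1 (-3.72 ± 0.37, limma adjusted p = 3.37e-06). Solyc03g045140.2 stood at 0.645, 0.481 and 0.344 FPKM against 7.05, 13.1 and 14.9 (-3.04 ± 0.25, limma adjusted p = 2.06e-07). All 3 Guizhen libraries were above all 3 of Guozhen at each of these loci, and the calls held whichever library was left out.

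The neighbours Solyc02g077930.1 and Solyc02g077940.1 were listed at 0 in all 3 Guozhen libraries. In Guizhen the first stood at 6.98, 8.28 and 4.94 FPKM and the second at 11.4, 11.1 and 10.1. Both were called (limma adjusted p = 9.5e-09 and 5.63e-14). A fold against a group at 0 is not given, since without counts a 0 may be a failed estimate.

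Solyc00g026160.2 combined a high level with a large difference, at 33.8, 83.3 and 6.16 FPKM in Guozhen and 507, 612 and 733 in Guizhen (-4.47 ± 0.55, limma adjusted p = 5.26e-05). Solyc09g011630.2 stood at 3.51, 1.38 and 2.27 FPKM against 66.3, 48.3 and 41.2 (-3.99 ± 0.43, limma adjusted p = 1.04e-05). Solyc00g020840.2 stood at 0.0321, 1.13 and 0 FPKM against 7.51, 16.7 and 13.7 (-3.33 ± 0.58, limma adjusted p = 0.00231). These 3 calls also held under every omission of 1 library. Guozhen libraries were low at all 3 loci, although at Solyc00g026160.2 they spread from 6.16 to 83.3 FPKM.

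The last members of this group lost their call under some omissions of 1 library. Solyc08g078920.1 stood at 0.111, 77.7 and 0.0914 FPKM in Guozhen, so that replicate 2 stood apart, and at 126, 189.8 and 114 in Guizhen (-4.94 ± 1.05, limma adjusted p = 0.0111). It did not pass without Guizhen replicate 2, Guozhen replicate 1 or Guozhen replicate 3 (limma adjusted p = 0.0582, 0.0761 and 0.0837), nor with only the 6 libraries (0.154). Solyc05g007740.1 stood at 0.139, 0.156 and 0.16 FPKM against 7.80, 9.13 and 8.25 (-3.03 ± 0.66, limma adjusted p = 0.0143). It did not pass without Guizhen replicate 2 or any 1 of the Guozhen libraries (limma adjusted p = 0.0501 to 0.0631), although its groups were far apart here. With only the 6 libraries in the fit, Solyc05g007740.1 passed.

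Besides Solyc09g007010.1 and Solyc00g026160.2, the most abundant called genes with a difference of at least 1 on the log2 scale were a pair in each direction. Solyc10g085850.1 stood at 285, 343 and 304 FPKM in Guozhen and 35.5, 63.3 and 113 in Guizhen (2.27 ± 0.46, limma adjusted p = 0.00754, and 0.0521 without Guizhen replicate 1). Solyc11g069430.1 stood at 382, 437 and 431 FPKM against 246, 165 and 187 (1.08 ± 0.27, limma adjusted p = 0.0332), and did not pass in 5 of the 6 omissions (0.067 to 0.165), the exception being that of Guizhen replicate 1. Groups did not overlap at either locus.

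In the other direction, Solyc02g070110.1 stood at 92.5, 123 and 63.9 FPKM in Guozhen and 276, 326 and 176 in Guizhen (-1.47 ± 0.31, limma adjusted p = 0.011). It did not pass without Guizhen replicate 2 (limma adjusted p = 0.0799) or Guozhen replicate 3 (0.0809). Solyc09g091000.2 stood at 94.2, 195 and 124 FPKM against 298, 343 and 245 (-1.15 ± 0.24, limma adjusted p = 0.00896), and did not pass without Guizhen replicate 2 (0.0623) or Guozhen replicate 1 (0.0661). With a pseudocount of 0.1 the limma adjusted p was 0.184 and 0.251, and with only the 6 libraries 0.0659 and 0.0893. Every Guizhen library was above every Guozhen library at both loci.

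Called genes were unevenly spread over the chromosomes. Over all loci tested, 541 of 19303 were called (2.80%). On chromosome 9, 94 of 1417 were called (6.63%), 57 higher and 37 lower in Guozhen, which made up 17.4% of all called loci. On chromosome 6, 65 of 1694 were called (3.84%), 44 higher and 21 lower. The other numbered chromosomes lay between 1.75% and 2.86%. With median-of-ratios scaling, added after the data were seen, the share of calls higher in Guozhen went from 67.7% to 48.5% on chromosome 6 and from 60.6% to 46.7% on chromosome 9.

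Many of the called loci on these chromosomes lay close together in the order of locus numbers. Windows of 50 consecutive tested loci with at least 3 times the background share called were merged into blocks, which gave 11 blocks with 1260 loci and 140 called genes. The block from Solyc09g010900.1 to Solyc09g060110.2 held 45 called among 330 loci (13.6%), 23 higher and 22 lower in Guozhen. The block from Solyc06g005450.1 to Solyc06g009770.1 held 29 called among 220 (13.2%), 17 higher and 12 lower, out of 65 called on the chromosome. Smaller stretches of chromosome 9, beginning at Solyc09g005000.1, Solyc09g009270.1 and Solyc09g092130.2, held 9 of 80, 8 of 80 and 9 of 90. In the densest window of chromosome 6, 18 of 50 loci were called (36%), and in that of chromosome 9, 15 of 50 (30%). The blocks were chosen by the calls themselves, so these counts are a description. Without Guizhen replicate 3, an alternative added after the data were seen, there were 18 blocks with 185 called genes, and windows of 30 loci gave 46 blocks with 240.

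**Figure D2:**
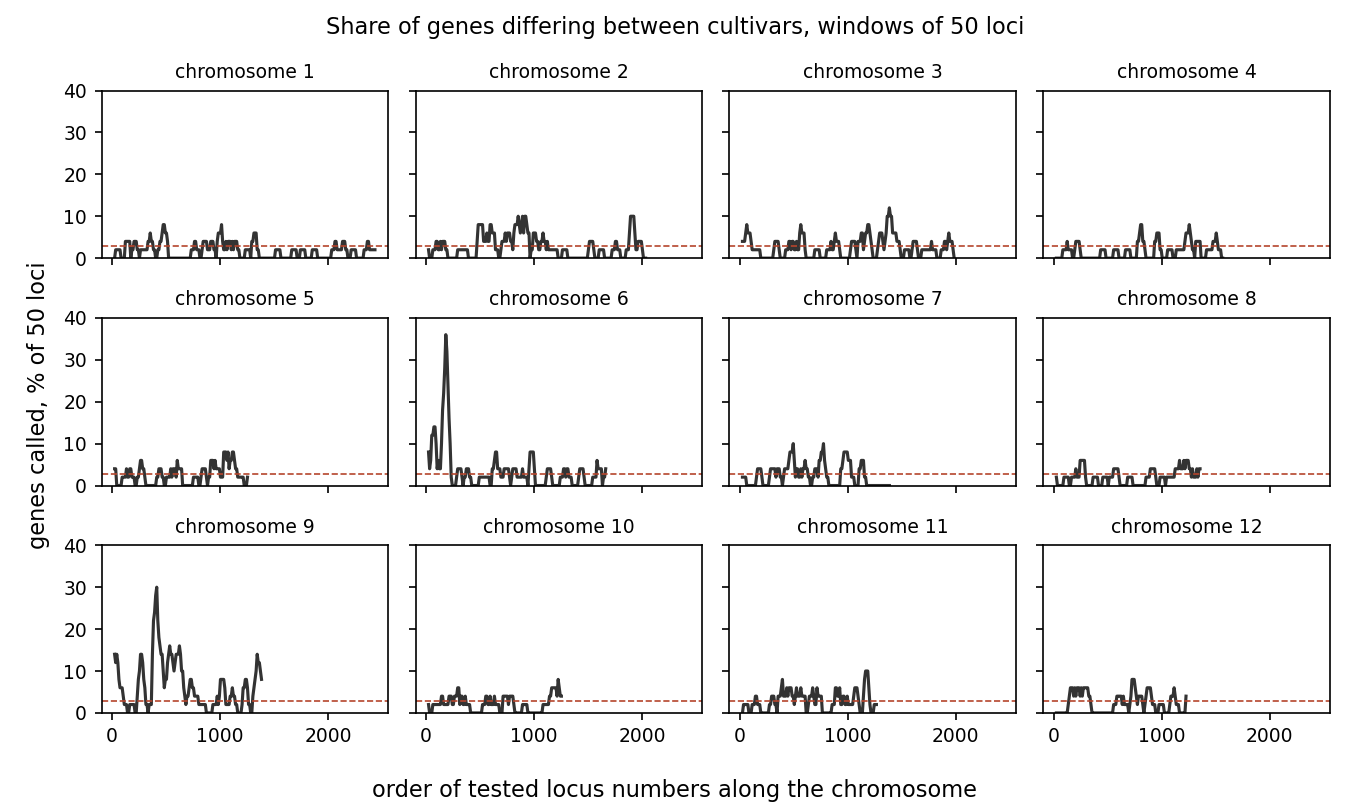
Share of genes called between the cultivars (vertical, percent of 50 loci) in windows of 50 tested loci along each of 12 chromosomes (horizontal, order of tested locus numbers). The dashed line is the share over all loci, 2.80%. The line rises to 36% on chromosome 6 and to 30% on chromosome 9, and stays at or below 12% on the other chromosomes.

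The difference between the cultivars was then read in the 7 other combinations of organ, day and nitrogen, whose libraries do not enter this comparison. In leaves at day 1 under low nitrogen, where 1.61% of all genes were called, 184 of the 579 genes (31.8%) were called in the same direction and 515 (88.9%) had the same sign, against 70.9% of genes not called here. At day 7, 67 (11.6%) were called in the same direction under normal nitrogen, where 0.691% of all genes were called, and 93 (16.1%) under low nitrogen (1.64%). The leaf comparisons come from 1 fit and so share their estimate of spread.

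Of the 579 genes, 521 were also tested in root. Among these, 117 (22.5%) were called in the same direction at day 1 under normal nitrogen (1.56% of all root genes called) and 73 (14.0%) under low nitrogen (0.763%). At day 7 the counts were 73 (14.0%) under normal nitrogen (0.925%) and 112 (21.5%) under low nitrogen (12.7%), where another 18 were called in the opposite direction. Among genes not called here, 0.234% to 5.68% were called in the same direction as their own difference in the other settings. In none of the 7 settings were 320 of the 579 genes (55.3%) called in the same direction. Genes not tested in root were counted there as not called. With genes called without Guizhen replicate 3, an alternative added after the data were seen, the share in leaves at day 1 under low nitrogen was 24.5% of 777, and in root at day 7 it was 9.24% of 714 under normal and 15.5% under low nitrogen, where 37 were called in the opposite direction.

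Loci in the blocks of chromosomes 6 and 9 were called elsewhere more often than loci outside all blocks, by count. Of 100 block genes, 56 were called in the same direction in leaves at day 1 under low nitrogen, 31 and 37 at day 7 under normal and low nitrogen, against 22.2%, 4.99% and 8.73% of 401 genes outside all blocks. In root the shares were 24.5% to 37.2% of 94 block genes and 7.42% to 15.1% of 364 genes outside. The sign was the same in all 8 settings for 47 of the 94 block genes (50%) and for 74 of the 364 outside (20.3%). Blocks were defined by the calls of this comparison and not by those of the other settings, and the difference between the shares was not tested.

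**Figure D3:**
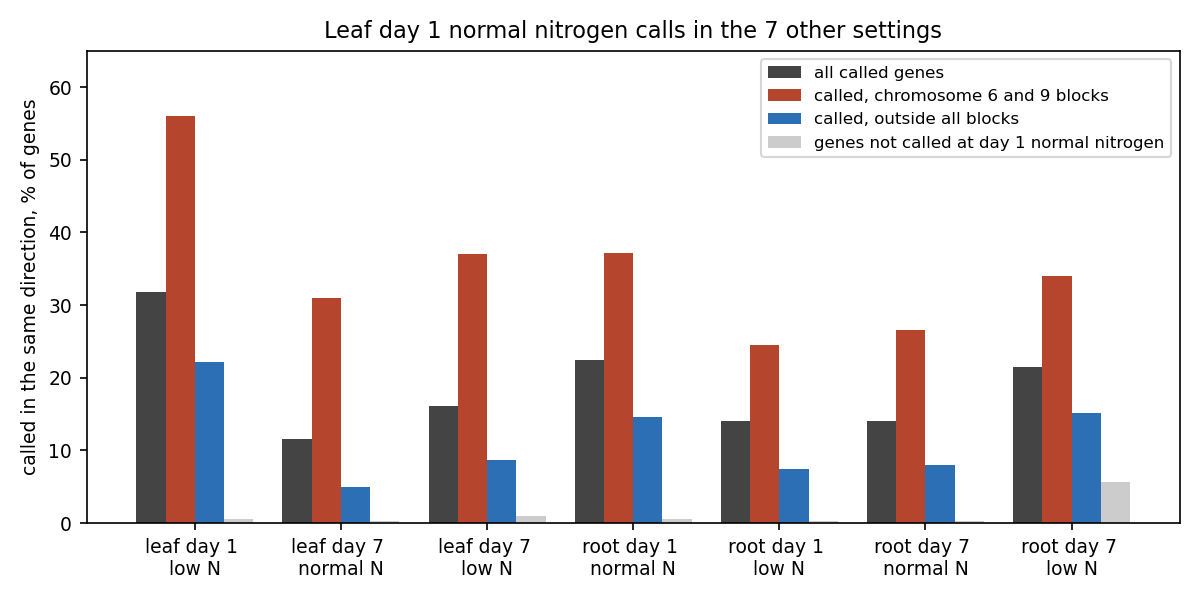
Share of genes called in the same direction (vertical, percent) in each of the 7 other settings (horizontal), for all called genes, called genes in the chromosome 6 and 9 blocks, called genes outside all blocks, and genes not called in leaf at day 1 and normal nitrogen. In all 7 settings the bar for the blocks is above the bar for genes outside, with 56% and 22.2% in leaf at day 1 and low nitrogen.

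A small set of loci differed between the cultivars in every organ, day and nitrogen level. All 7 other settings called 23 loci in the same direction, 14 higher and 9 lower in Guozhen, of which 8 lie on chromosome 9 and 5 on chromosome 6. None of the 23 lost its call in the present comparison when a library was left out. Among loci with a group mean of at least 5 FPKM, and by their smallest difference over the settings, Solyc09g005520.2 and Solyc10g085470.1 led those higher in Guozhen and called in all 8. The first stood at 9.38, 18.1 and 11.4 FPKM in Guozhen and 2.37, 1.5 and 1.67 in Guizhen (2.25 ± 0.23, limma adjusted p = 5.82e-06), with differences of 2.11 to 4.25 over the 8 settings. The second stood at 17.5, 18.7 and 17.2 FPKM against 7.16, 1.08 and 2.42 (2.28 ± 0.39, limma adjusted p = 0.00187), with differences of 2.20 to 3.52, and did not pass with only the 6 libraries in the fit (adjusted p = 0.0599). Solyc09g020190.2, described above, had the same sign in all 8 and its smallest difference was 3.06, in leaves at day 7 under normal nitrogen, where it was not called (limma adjusted p = 0.069).

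Among loci lower in Guozhen in all 8 settings, Solyc02g077940.1, Solyc10g085040.1 and Solyc02g077930.1 led. Over its 24 libraries Guozhen reached at most 0.237, 2.46 and 0.308 FPKM at these loci, while the lowest of the 24 Guizhen libraries were at 7.45, 8.48 and 4.04. The groups of 24 therefore did not overlap. Chosen from the 23 after their values were seen, Solyc09g059020.2 stood at 44.4, 48.4 and 40.6 FPKM in Guozhen and 5.37, 7.34 and 6.62 in Guizhen (2.62 ± 0.16, limma adjusted p = 5.98e-09). Chosen in the same way, Solyc09g011760.2 stood at 35.3, 31.8 and 39.9 FPKM against 90.9, 89.6 and 86.9 (-1.30 ± 0.13, limma adjusted p = 3.13e-06) and Solyc06g008520.2 at 8.47, 7.70 and 5.05 against 32.3, 28.9 and 26.2 (-1.92 ± 0.17, limma adjusted p = 8.58e-07). All 3 lie in blocks, and their groups did not overlap.

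Some loci were below 1 FPKM in every library of one cultivar. Below 1 FPKM in all 24 Guozhen libraries and at or above 1 in all 12 Guizhen leaf libraries were 4 called genes, on chromosomes 2, 6 and 9. The reverse held for 7, of which 5 carry locus numbers and 2 are newly assembled. These counts are of called genes and have no share over all tested genes beside them. Of the 7, Solyc09g005540.1 and Solyc09g005770.1 lie in the same block of chromosome 9. They stood at 3.76, 3.87 and 4.26 FPKM and at 3.34, 3 and 3.76 in Guozhen, and no Guizhen library of any organ exceeded 0.0657 and 0.0706.

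**Figure D4:**
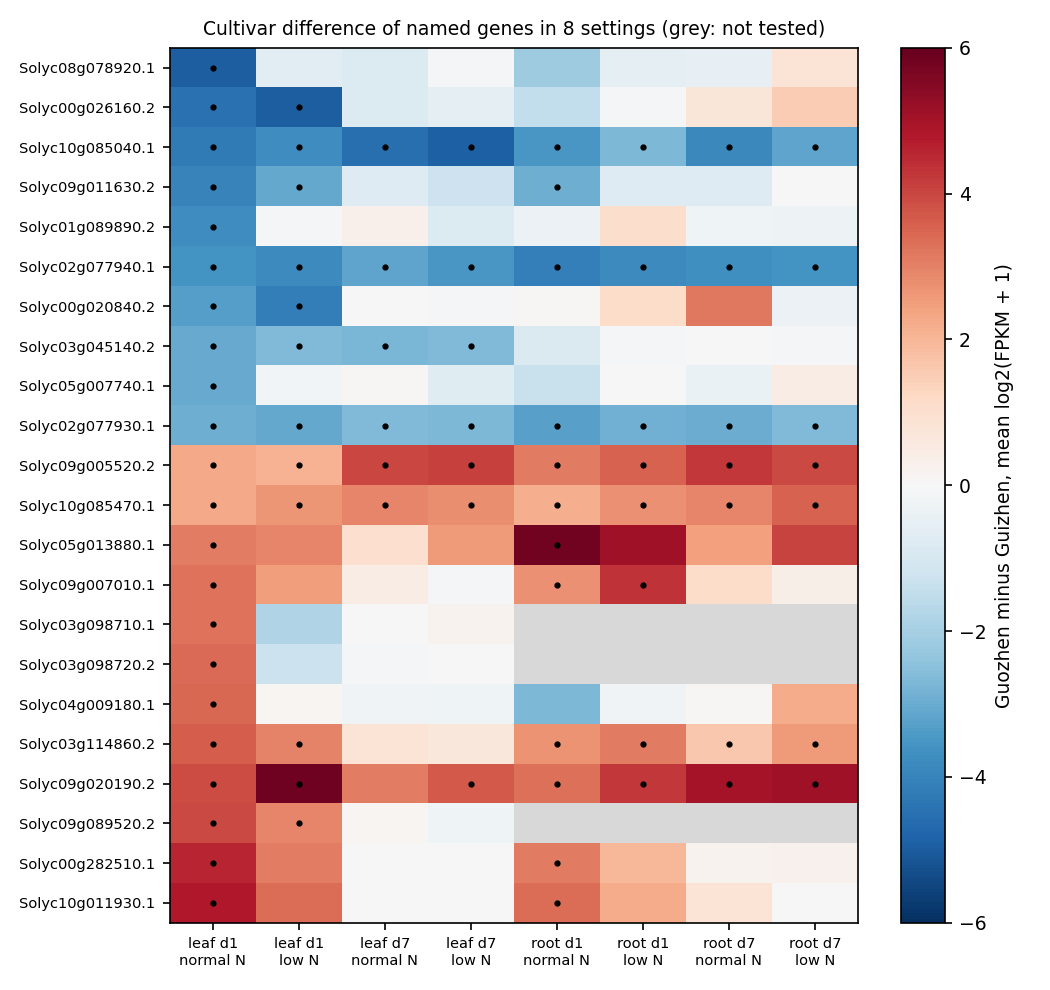
Difference between the cultivars (colour, mean log2(FPKM + 1), Guozhen minus Guizhen) in the 8 combinations of organ, day and nitrogen (columns). Rows are the loci with the largest differences here, and those with the largest smallest difference among loci of 1 sign in all 8 settings. Black dots mark calls and grey cells loci not tested. Solyc10g085040.1, Solyc02g077940.1 and Solyc02g077930.1 are blue with a dot in all 8 columns, while Solyc01g089890.2 has a dot in the first column alone.

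Whether the difference itself changed with nitrogen, day or organ was tested by interaction terms in limma. By nitrogen, within leaves at day 1, 17 of 19815 genes were called (0.0858%). By day, within leaves under normal nitrogen, 84 were called (0.424%), and by organ, at day 1 under normal nitrogen, 162 of 22117 (0.732%). The count by nitrogen was 5 without Guozhen replicate 1 and 7 without Guozhen replicate 3. The count by day was 52, 50, 53 and 34 without Guizhen replicates 1 and 2 and Guozhen replicates 1 and 3, and the count by organ 88 without Guizhen replicate 2 and 89 without Guozhen replicate 2. The loci named next were chosen among genes called in this comparison, which is part of each interaction, so large interactions were favoured. Solyc01g089890.2 was called in all 3 interactions. Its Guizhen leaf level at day 1 was 22.2, 10.8 and 12.2 FPKM under low nitrogen, overlapping the levels under normal nitrogen, while Guozhen went from 1.15, 0.674 and 0.523 to 12.4, 16.3 and 12.3. The interaction with nitrogen was -3.65 (limma adjusted p = 0.0106). At day 7 under normal nitrogen the locus was at or below 1.08 FPKM in both cultivars (interaction with day -4.02, limma adjusted p = 0.000865). In root at day 1 it stood at 2.48, 3.38 and 3.27 FPKM in Guozhen and 5.44, 5.70 and 2.09 in Guizhen (interaction with organ -3.38, limma adjusted p = 3.06e-05).

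At Solyc03g098710.1, under low nitrogen, Guozhen stood at 1.47, 6.18 and 0.343 FPKM and Guizhen at 6.01, 10 and 12.4, with overlapping groups. The interaction was 5.09 (limma adjusted p = 0.0152), although the low nitrogen difference of -1.82 was itself not called (adjusted p = 0.12). Its neighbour Solyc03g098720.2 stood at 21.0, 20.6 and 4.15 FPKM against 15.7, 39.8 and 50.6 under low nitrogen, with overlapping groups (interaction 4.69, limma adjusted p = 0.0486). Both loci were below 1 FPKM in every day 7 and every root library.

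The lists that follow carry unverified classes, and their counts stand beside 1.91% of all genes called higher and 1.01% called lower. Lists and members were chosen with earlier results of these data known, so a count above those shares is only a description. Of 15 tested loci listed for nitrogen transport and assimilation, none was called higher and 1 lower, with a median difference of 0.24 (0.14 after scaling) against 0.08 over all genes. That locus, Solyc10g078550.1, stood at 64.3, 68.3 and 58.5 FPKM in Guozhen and 189, 200.2 and 108 in Guizhen (-1.32 ± 0.34, limma adjusted p = 0.0384), without overlap. It did not pass in 5 of the 6 omissions (adjusted p = 0.0891 to 0.18), the exception being that of Guizhen replicate 3, nor without the filter (0.0567). The summed level of the list was 2394, 2261 and 2071 FPKM in Guozhen and 1995, 1954 and 2466 in Guizhen, with overlapping groups.

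Loci listed for chlorophyll a/b binding proteins, which hold the light-gathering pigments, were lower in Guozhen as measured, but none passed the test. Their summed level was 9314, 5211 and 8492 FPKM in Guozhen and 11949, 12939 and 11223 in Guizhen, so the groups did not overlap and Guozhen replicate 2 was the lowest. Of 27 loci, 25 had a negative difference, and for 19 all 3 Guozhen libraries lay below all 3 Guizhen libraries (28.1% of all genes tested did not overlap in either direction). The median difference was -0.71, or -0.82 after scaling and -0.79 without Guizhen replicate 3. With limma none was called in either direction, 8 had an unadjusted p below 0.05, and the smallest adjusted p was 0.0894. In the other leaf settings the medians of the same list were 0.26 (day 1, low nitrogen), -0.11 (day 7, normal nitrogen) and 0.17 (day 7, low nitrogen). The list also set the days apart: its sum was 3013 to 13272 FPKM in the 12 day 1 leaf libraries and 56257 to 78876 in the 12 of day 7. In whole leaf tissue, fewer cells of a type and less RNA per cell cannot be told apart.

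Of 5 loci listed for the Rubisco small subunit and its activase, 1 was called lower and none higher, against 1.01% and 1.91% of all genes. Their median difference was -0.11, and 0.10 without Guizhen replicate 3. Solyc09g011080.2 stood at 3.80, 2.47 and 2.40 FPKM in Guozhen and 5.78, 7.08 and 7.65 in Guizhen (-1.02 ± 0.27, limma adjusted p = 0.0457), and did not pass when any 1 of the 6 libraries was left out (0.0533 to 0.17) or without the filter (0.0657). It is far below the other 4 members, which lay between 564 and 12463 FPKM. Solyc09g011080.2 lies in the block from Solyc09g010900.1 to Solyc09g060110.2, where 13.6% of tested loci were called.

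Of 9 tested loci listed for disease resistance, 3 were called higher in Guozhen and none lower against 1.91% and 1.01% of all genes (median 0.36, or 0.25 after scaling). Solyc09g018220.1 stood at 5.72, 5.55 and 5.83 FPKM against 1.52, 1.54 and 1.78 (1.36 ± 0.18, limma adjusted p = 8.1e-05), and its call held under every omission. Solyc09g005090.1 stood at 9.19, 10.5 and 6.07 FPKM against 2.74, 4.32 and 2.91 (1.14 ± 0.24, limma adjusted p = 0.0116), and did not pass without Guizhen replicate 1, Guozhen replicate 1 or Guozhen replicate 2 (0.058, 0.0574 and 0.0757), nor with a pseudocount of 0.1 (0.185) or only the 6 libraries (0.0591). Solyc06g008300.2 stood at 23.9, 47.2 and 20.5 FPKM against 9.94, 10 and 7.44 (1.55 ± 0.40, limma adjusted p = 0.0395). It did not pass in 5 omissions (0.0723 to 0.189), the exception being that of Guozhen replicate 3, nor after median-of-ratios scaling (0.0635), without the filter (0.0602), with a pseudocount of 0.1 (0.101) or with only the 6 libraries (0.0581). All 3 lie in the blocks of chromosomes 6 and 9, and at none did the groups overlap. In the blocks that hold them, 13.6%, 11.25% and 13.2% of tested loci were called in either direction, above the shares over all genes.

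Of 35 loci listed for jasmonate and wound response, 1 was called higher and 2 lower, against 1.91% and 1.01% of all genes (median -0.09, or -0.20 after scaling). The higher one was Solyc09g089520.2, described above, where Guozhen libraries ranged from 10.4 to 64.9 FPKM. Solyc03g122340.2 stood at 38.1, 31.4 and 38.5 FPKM against 50.7, 87.3 and 71.3 (-0.91 ± 0.24, limma adjusted p = 0.0414), and did not pass in 5 omissions (0.0776 to 0.225), the exception being that of Guizhen replicate 1. Solyc04g079730.1 stood at 4.68, 3.86 and 5.88 FPKM against 9.11, 20.0 and 12.9 (-1.32 ± 0.30, limma adjusted p = 0.0188), and did not pass without Guizhen replicate 2, Guozhen replicate 1 or Guozhen replicate 2 (0.136, 0.0661 and 0.094). Without the filter the first had a limma adjusted p of 0.0574, with a pseudocount of 0.1 they had 0.0524 and 0.0634, and with only the 6 libraries 0.0782 and 0.0669. The groups did not overlap at either locus.

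With limma no locus passed in the lists for pathogenesis-related proteins (12 tested, 10 with a positive difference, median 0.48, none with an unadjusted p below 0.05), the circadian clock (18, median 0.16, 3 below 0.05), anthocyanin and flavonoid synthesis (14, median -0.02, 1), heat shock (6, median -0.23, 1), glandular trichome terpene synthases (2, none) and root uptake (2, none). Without Guizhen replicate 3 the pathogenesis-related median was 0.22 and the anthocyanin median 0.26, and after scaling the clock median was 0.05. The summed pathogenesis-related level was high in both cultivars, at 26059, 35716 and 32872 FPKM in Guozhen and 25944, 22076 and 11474 in Guizhen. Over all 12 day 1 leaf libraries it lay between 11474 and 42550, and over the 12 of day 7 between 59.1 and 2058.

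**Figure D5:**
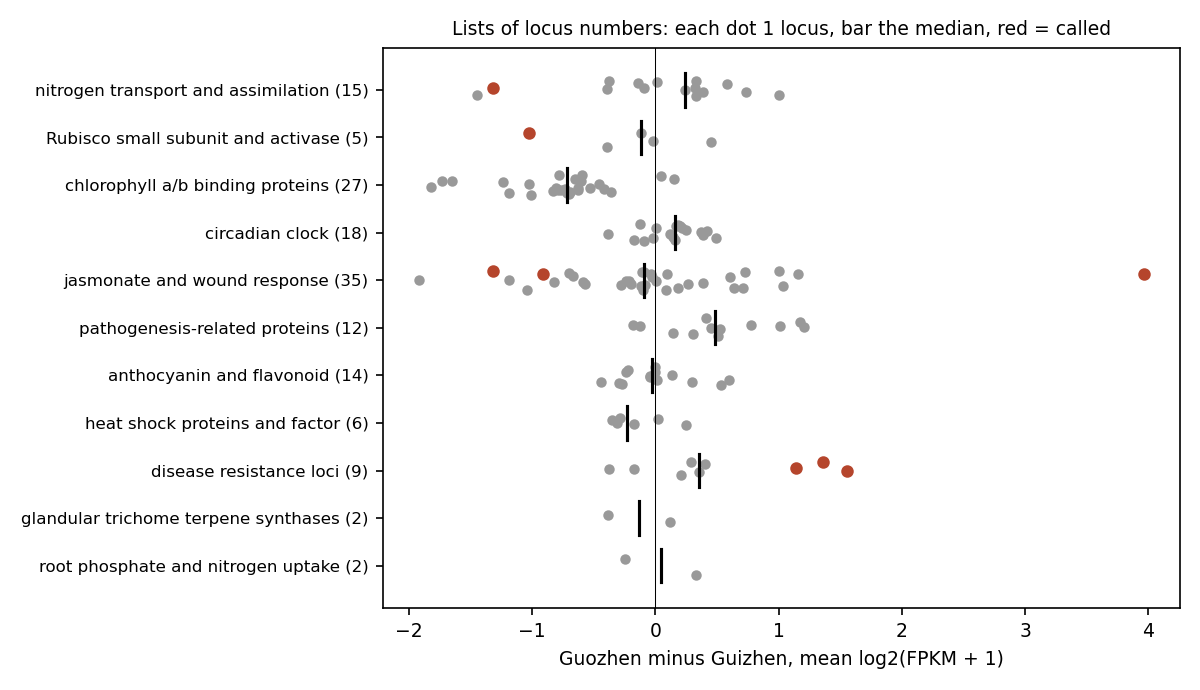
Difference between the cultivars in leaf at day 1 and normal nitrogen (horizontal, mean log2(FPKM + 1), Guozhen minus Guizhen) for each tested locus of 11 lists (rows, number of loci in brackets). Dots are loci, red where called, and bars are list medians. In the chlorophyll a/b binding list, 25 of 27 loci lie left of 0, with a list median of -0.71 and no red dot. The disease resistance list has 3 red dots to the right.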

How the data were processed

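The authors deposited FPKM in 1 table of 29898 genes, 28005 with locus numbers and 1893 newly assembled. HISAT2 and StringTie were named in the submitters' processing notes; their versions and the genome build and annotation are not given in the sources used here. Per the labels' protocols, a Tiangen kit served for RNA extraction and NEBNext Ultra for library construction. Depth per library is unknown, so low values carry no computed error. Groups were taken from sample titles. All 24 leaf libraries were fitted on log2(FPKM + 1), a pseudocount of 1, with 1 mean per group and a variance trend in limma 3.58.1 (R 4.3.3), for genes with at least 1 FPKM in 3 libraries. Root was fitted in the same way, and the interaction with organ in all 48 libraries. Benjamini-Hochberg adjustment of p-values ran over all genes tested. For 3 libraries against 3, the smallest p of an exact permutation test is 0.1. Replicate numbers did not pair the libraries (the check is under the settings tried).

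Named loci were chosen by rule: among called loci with a group mean of at least 5 FPKM and no overlap, the 10 largest differences in each direction and the 3 in each direction with the largest smallest difference among loci of 1 sign in all 8 settings; the 3 most abundant in each direction with a difference of at least 1; called list members; and the 2 called genes with the largest called interaction of each kind. The members and lists were chosen with earlier results of these data known. The supplied gene table of 41476 entries held 0 locus numbers of this kind. Alternatives were a pseudocount of 0.1, no filter, median-of-ratios scaling, only the 6 libraries, a replicate block, a robust fit, an adjusted p below 0.01, and each library left out. Python 3.11.15 was used for counts and matplotlib 3.10.9 for figures.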

Additional observations from a re-analysis of the deposited data

Results flagged for a closer look

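The loci below are named loci, called in this comparison, whose interaction with nitrogen, day or organ was also called in limma. The difference in leaf at day 1 and normal nitrogen is part of each interaction. Choosing loci by that call therefore favours large interactions, and the values are a description. Values are differences of differences of mean log2(FPKM + 1), with leaf at day 1 and normal nitrogen taken first.

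Against low nitrogen at day 1, the difference was larger by 5.09 at Solyc03g098710.1 (limma adjusted p = 0.0152) and by 4.69 at Solyc03g098720.2 (0.0486), and it changed by -3.65 at Solyc01g089890.2 (0.0106).

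Against day 7, the change was 2.79 at Solyc03g114860.2 (limma adjusted p = 0.00153), -3.66 at Solyc00g026160.2 (0.0449), -3.21 at Solyc09g011630.2 (0.0196), -4.02 at Solyc01g089890.2 (0.000865) and -1.74 at Solyc09g005520.2 (0.0192). At Solyc03g114860.2 the Guozhen level was 48.2, 47.0 and 45.8 FPKM at day 1 and 2.85, 1.72 and 2.65 at day 7. At Solyc09g005520.2 the Guozhen level was 9.38, 18.1 and 11.4 FPKM at day 1 and 23.7, 11.9 and 12.6 at day 7, while no Guizhen leaf library of day 7 under normal nitrogen exceeded 0.0361.

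Against root, the change was 3.20 at Solyc03g098710.1 (limma adjusted p = 0.00293), 3.41 at Solyc03g098720.2 (0.00396), 6.16 at Solyc04g009180.1 (0.0165), 3.96 at Solyc09g089520.2 (0.000629), -3.38 at Solyc01g089890.2 (3.06e-05), -2.17 at Solyc03g045140.2 (0.00209), -2.995 at Solyc02g070110.1 (0.00408) and 2.003 at Solyc06g008300.2 (0.0162). At Solyc04g009180.1, Guizhen leaf replicates 2 and 3 were at 0.0672 and 0.0659 FPKM and Guozhen root replicates 1 and 2 at 0.0944 and 0.0385, while the other libraries of these 4 groups lay between 14.6 and 32.9. Solyc09g089520.2 was listed at 0 in every root library. At this locus and at Solyc03g098720.2 the change against root equals the leaf difference (3.96 and 3.41), so it restates the leaf difference.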

How the results depend on the processing

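Depth is unknown, so calls at low FPKM have no counting error behind them. In this paragraph counts are of all genes, then those higher and lower in Guozhen (for interactions, positive and negative). Against 579, 379 and 200, an adjusted p below 0.01 gave 244, 153 and 91, and a pseudocount of 0.1 gave 119 lower. Leaving out 1 library gave 288 to 777 called, 192 to 526 higher and 88 to 251 lower. Replicate numbers did not pair the libraries, since same-numbered deviations correlated at -0.09, -0.09 and 0.02, and in 1 of 12 pairs of leaf libraries the own number correlated best. With a replicate block, 309, 189 and 120 were called. By nitrogen (17, 14 and 3), a pseudocount of 0.1 gave 8, 7 and 1, an adjusted p below 0.01 gave 1, 1 and 0, no filter gave 5 negative, a replicate block 3 with 1 positive, and omissions 5 to 16, 4 to 12 and 1 to 4. By day (84, 60 and 24), the replicate block gave 18, 15 and 3, an adjusted p below 0.01 gave 23, 20 and 3, a pseudocount of 0.1 gave 12 negative, and omissions 34 to 117, 27 to 85 and 7 to 32. By organ (162, 78 and 84), the block gave 90, 42 and 48, an adjusted p below 0.01 gave 65, 29 and 36, a pseudocount of 0.1 gave 103 with 46 negative, and omissions 88 to 201, 40 to 113 and 47 to 88. Interactions could not be fitted with only the 6 libraries. Blocks went from 11 to 46 with windows of 30 loci, holding 240 called genes, and to 18 without Guizhen replicate 3. Of the 33 named loci, 17 kept their call under all 6 omissions. No named locus reversed its direction under any of these settings, and the loci that lost their call numbered 14 with only the 6 libraries, 9 with the block, 7 with the pseudocount of 0.1, 5 without the filter, 2 with scaling, 13 at an adjusted p below 0.01 and 0 with the robust fit. Their causes were not tested.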

Other observations

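Newly assembled genes, which the authors' transcript assembly added outside the numbered loci, were called more often by count than numbered loci. Of 512 tested, 38 were called (7.42%), 19 higher and 19 lower in Guozhen, against 2.80% of loci. Of the 38 tested on chromosome 9, 9 were called. Some of the 38 called overlap in position, such as newGene_3501 and newGene_3503 on chromosome 3 and newGene_7911 and newGene_7913 on chromosome 7. They are therefore not all separate loci. In leaves at day 1 under low nitrogen, 22 of the 38 called (57.9%) were called in the same direction. The share was 31.8% of all 579 called genes, and 1.61% of all genes were called there. Of the 28 also tested in root, 20 (71.4%) were called in the same direction at day 1 under normal nitrogen. That share was 22.5% of the 521 called genes tested in root, and 1.56% of all root genes were called. The same sign in all 8 settings was found for 22 of the 28 (78.6%), against 29.2% of the 521. No sequence or name was used for these genes here.

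Among the 379 genes called higher in Guozhen, 25 were listed at 0 in all 3 Guizhen libraries, and among the 200 called lower, 10 were listed at 0 in all 3 Guozhen libraries. No share over all tested genes stands beside these counts. Guizhen libraries listed 5977 to 6328 genes at 0 and Guozhen libraries 5722 to 5734. Guizhen replicate 1, the library of the lowest relative depth (0.798), also listed the most genes at 0 (6328). Guizhen replicate 3, the library of the highest relative depth (1.13), listed 5977, more than any Guozhen library. The part of depth in these counts was not tested.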
